A study of Mus musculus with 21 samples.

Results

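This account concerns the sites where Foxa2 gave a peak 48 hours after infection and no other Foxa list of either stage gave one at the same place. Chromatin immunoprecipitation with sequencing (ChIP-seq) had been used to locate the forkhead factors Foxa1, Foxa2 and Foxa3 in mouse cells. The peaks of the 6 Foxa lists were pooled and overlapping peaks merged, which gave 29339 regions. Of these, 3146 held a peak of the 48-hour Foxa2 list and of none of the other 5 lists, and each held exactly 1 such peak. They are called Foxa2-alone sites below. They were chosen by the peak calls of the Foxa lists, so their Foxa peaks, scores and widths are given as a description, without a test.

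All cells were mouse embryonic fibroblasts of the C57BL/6 strain, prepared from embryos of 13.5 days post coitum, and every group received retroviral Hnf4alpha together with 1 Foxa factor. The Foxa1 line received Foxa1 and Hnf4alpha, the Foxa2 line Foxa2 and Hnf4alpha, and the Foxa3 line Foxa3 and Hnf4alpha. For each pair of factors there were cells taken 48 hours after infection and established hepatocyte-like (iHep) cells, and at each stage 1 library was made with an antibody to the line's Foxa factor and 1 with an antibody to Hnf4alpha (Hnf4a below). Each Foxa antibody was thus used in its own line, so antibody, factor and line cannot be told apart. Infected cells were not stated to be selected at 48 hours, and the labels do not say whether an iHep line was 1 clone. A line here means the factors introduced, not 1 culture followed over time: the titles number the Foxa3 samples 1 at 48 hours and 3 as iHep cells, while those of Foxa1 and Foxa2 carry 1 at both stages. Peak lists hold no expression values, so the labelled cell type was not checked against marker genes.

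Foxa proteins bind DNA through a winged-helix forkhead domain that resembles linker histone, and they are known as pioneer factors that can reach their sites in closed chromatin and help to open it. In the embryo they act before liver genes are expressed, and Foxa2 is needed for the formation of the foregut endoderm from which the liver buds. Hnf4a is a nuclear receptor that maintains the hepatocyte gene programme and often binds liver enhancers beside Foxa proteins.

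The 6 Foxa lists held 3435 to 12661 peaks, and the 6 Hnf4a lists 370 to 2506. Read depth was not given, so list length could not be corrected for it, and a site absent from a list is a site where no peak was called. With 1 library per group there is no replicate spread, and no p-value is given. Intervals in brackets are 95% Wilson intervals of a share. They cover counting error over sites alone, and sites of 1 library are not replicates. The titles carry codes of unstated meaning, and the 48-hour Foxa2 library shares its code, R209, with the 48-hour Hnf4a library of its line and with both 48-hour libraries of the Foxa3 line, while those of the Foxa1 line carry R222.

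The Foxa2-alone sites made up the largest class of early Foxa2 binding. They were 3146 of the 6827 peaks of the 48-hour Foxa2 list, or 46.1% (44.9% to 47.3%). A further 1412 peaks (20.7%) overlapped a 48-hour Foxa1 or Foxa3 peak and no iHep Foxa peak, and 2269 (33.2%) overlapped an iHep Foxa peak. The same rule applied to the other early lists left 1619 of 6781 Foxa1 peaks (23.9%, 22.9% to 24.9%) and 1359 of 5690 Foxa3 peaks (23.9%, 22.8% to 25.0%). Of the 48-hour Foxa2 peaks, 3092 (45.3%) overlapped a 48-hour Foxa1 peak, 2148 (31.5%) an iHep Foxa2 peak, and 1053 (15.4%) an iHep Foxa1 peak, while Foxa3 overlapped 161 (2.36%) at 48 hours and 167 (2.45%) in iHep cells.

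The class is bounded mainly by 2 lists. The 48-hour Foxa1 list was the sole other Foxa list at 1377 of the 48-hour Foxa2 peaks, and the iHep Foxa2 list at 392. The sole other list was iHep Foxa3 at 26 peaks, 48-hour Foxa3 at 16 and iHep Foxa1 at 9. Without the 48-hour Foxa1 list in the rule the class would hold 66.3% of the 48-hour Foxa2 peaks, and without the iHep Foxa2 list 51.8%.

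Foxa2-alone sites were among the weaker and narrower peaks of their list. Each peak carries a score deposited by the authors, whose derivation the sources used here do not state and which is used to rank peaks within a list. The scores of the 3146 sites ran from 5.58 to 83.3 with a median of 13.7 and quartiles of 10.8 and 18.1. The peaks shared at 48 hours but absent from iHep Foxa lists had a median of 20.1, and those in an iHep Foxa list 19.0. The class nevertheless reached into the upper part of the list, with a best rank of 91 among 6827 peaks, 1 site among the top 100 and 31 among the top 500.

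**Figure D1:**
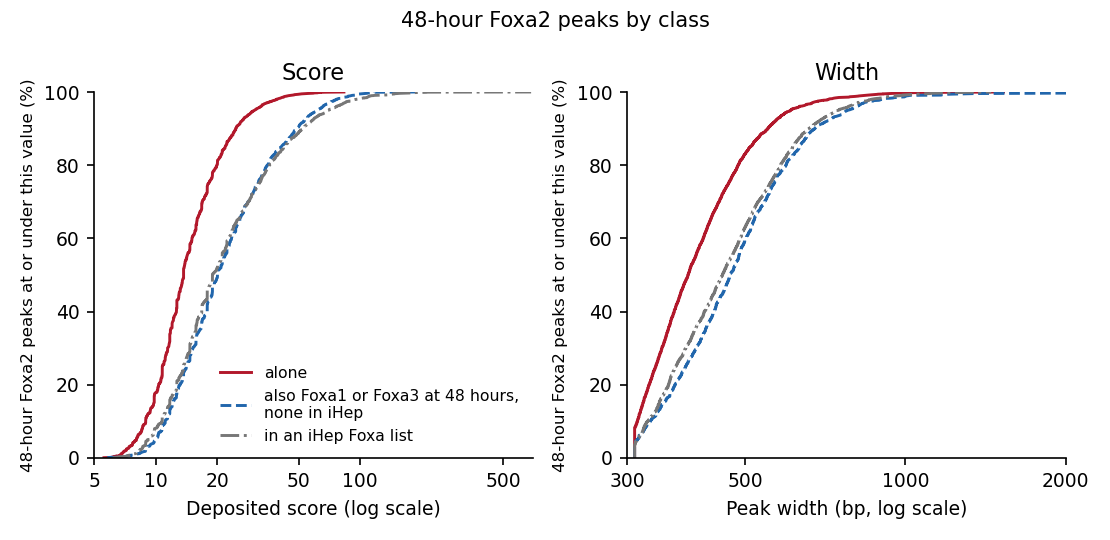
Share of 48-hour Foxa2 peaks (vertical axis, %) at or under a deposited score (left, log axis) or peak width in bp (right, log axis). Red solid lines are the 3146 Foxa2-alone sites, blue dashed lines the 1412 peaks shared at 48 hours and absent from iHep lists, grey lines the 2269 peaks in an iHep Foxa list. The red curves lie to the left in both panels, with medians of 13.7 for score and 391 bp for width.

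The share of peaks that were Foxa2-alone fell with score over the whole range of the list. The 48-hour Foxa2 list was ordered by score and divided into 10 bins of equal size. In the lowest bin 69.4% (65.8% to 72.7%) of the peaks were alone, with scores from 5.58 to 9.82. The share was 48.5% (44.7% to 52.2%) in the fifth bin and 22.7% (19.7% to 26.0%) in the ninth. In the highest bin, with scores from 39.4 upward, 61 of 682 peaks (8.94%, 7.03% to 11.3%) were alone. The early Foxa1 list fell from 43.3% to 1.47% between its own lowest and highest bins, and the early Foxa3 list from 43.2% to 8.96%. Foxa2 thus had the highest share alone in each of the first 9 bins.

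**Figure D2:**
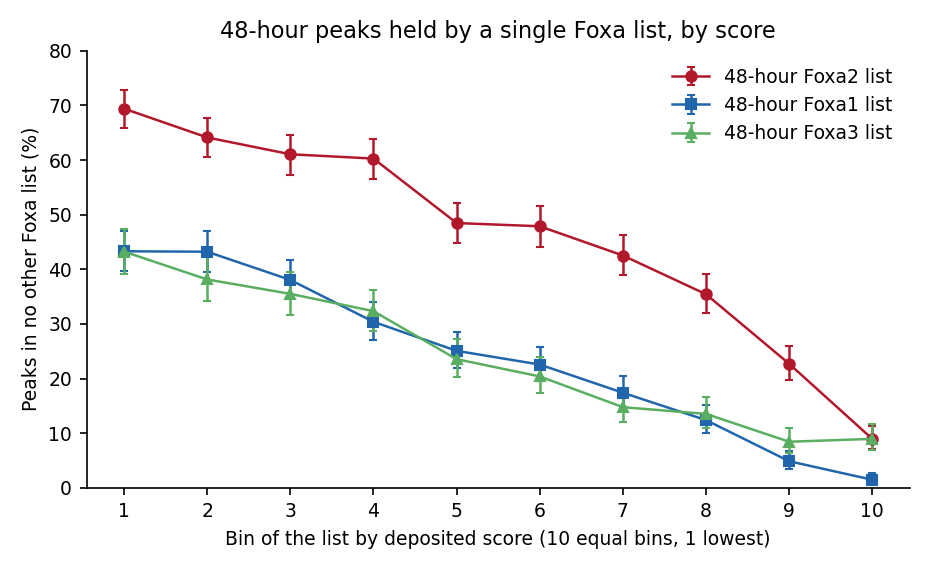
Share of peaks held by no other Foxa list (vertical axis, %) in each of 10 equal bins of a 48-hour list ordered by its deposited score (horizontal axis, 1 lowest, 10 highest). Points are Foxa2 (red circles), Foxa1 (blue squares) and Foxa3 (green triangles), and bars are 95% Wilson intervals. Foxa2 runs from 69.4% down to 8.94% and lies above the other lists up to the ninth bin.

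The widths of Foxa2-alone sites ranged from 310 to 1528 bp with a median of 391 bp, against 469 bp for peaks shared at 48 hours and 453 bp for peaks in an iHep Foxa list. The narrowest width in the list, 310 bp, was shared by 400 peaks, and 261 of these were Foxa2-alone. With the list divided into 4 equal bins by width, 61.7% of peaks were alone in the narrowest bin, at 310 to 356 bp, and 26.5% in the widest, from 516 bp. Width and score were related across the 3146 sites, with a Spearman coefficient of 0.54, as they were across all 6827 peaks at 0.68. The widest site was chr17:39980876-39982403, described further below, and the next widest was chr11:79733295-79734627 at 1333 bp with a score of 36.4.

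Few sites lay close to the edge of the rule. The Foxa2-alone site nearest to another Foxa peak, chr19:23215383-23215727, lay 3 bp from a 48-hour Foxa3 peak, and chr6:127280086-127280587 lay 4 bp from an iHep Foxa3 peak. In all, 3 sites had a gap of at most 10 bp and 11 a gap of at most 100 bp. On the other side of the rule, chr6:38501994-38502303 was left out because it overlapped an iHep Foxa3 peak by 14 bp. Of the 3681 peaks left out, 14 had a largest overlap of at most 100 bp, and the median overlap was 406 bp.

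The 10 highest scoring Foxa2-alone sites had scores of 59.4 to 83.3. The first was chr10:102099007-102099723, 717 bp wide with a score of 83.3, and its nearest Foxa peak of another list lay 23737 bp away in the iHep Foxa2 list. It also overlapped a 48-hour Hnf4a peak of the Foxa2 line. It was followed by chr10:29348900-29349549 with a score of 74.7, and by chr14:104405617-104406152 with 67.1, whose nearest other Foxa peak was 410575 bp away. Next came chr1:76180838-76181641 with 64.0, chr13:94346352-94346962 with 64.0 and chr4:29821768-29822308 with 63.3. The remaining 4 of the top 10 were chr17:39984699-39985532, chr3:139024117-139024676, chr17:79564330-79564891 and chr3:96829180-96829743, with scores of 61.7 to 59.4. Within the top 10 the gap to another Foxa list ranged from 6550 bp, at chr17:79564330-79564891, to 957883 bp, at chr17:39984699-39985532. Of the 10, 2 overlapped an Hnf4a peak, namely the first and chr17:39984699-39985532, which lies in a run of sites described below. Over all Foxa2-alone sites the share was 49 of 3146 (1.56%). At the other end, chr13:5202111-5202437 had the lowest score of the whole list, 5.58.

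Foxa2-alone sites were spread over all 20 chromosomes that held 48-hour Foxa2 peaks. Their share of the chromosome's 48-hour Foxa2 peaks ranged from 40.0% on chromosome 11 (112 of 280, 34.4% to 45.8%) to 54.1% on chromosome 4 (49.5% to 58.7%, 447 peaks). Chromosome 16 followed with 52.6% (154 of 293, 46.8% to 58.2%). Chromosome X stood at 49.1% (39.9% to 58.3%). The intervals of 3 of the 20 chromosomes, namely 4, 16 and 11, excluded the 46.1% of the whole list. Those of chromosomes 4 and 11 did not overlap each other. These shares come from the rule itself and carry no test. On chromosome 4, 39.4% of the 48-hour Foxa2 peaks overlapped a 48-hour Foxa1 peak and 26.4% an iHep Foxa2 peak. On chromosome 11 these shares were 47.5% and 38.6%, against 45.3% and 31.5% in the whole list. Early Foxa1 peaks were alone in 28.2% of cases on chromosome 4, 26.7% on chromosome 16 and 22.5% on chromosome 11, against 23.9% in the whole Foxa1 list. The order of chromosomes differed between the factors. Foxa1 stood highest on chromosome X, at 29.7%, and reached 27.6% on chromosome 6, where Foxa2 stood at 44.9%.

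**Figure D3:**
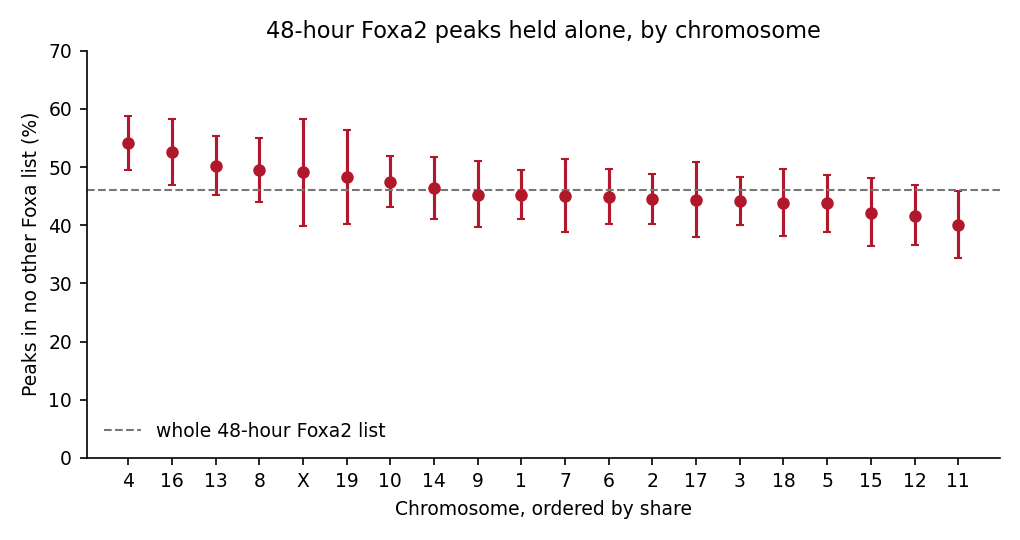
Share of 48-hour Foxa2 peaks held by no other Foxa list (vertical axis, %) on each chromosome (horizontal axis, ordered by share). Points are shares, bars 95% Wilson intervals, and the dashed line is the whole list at 46.1%. The shares run from 54.1% on chromosome 4 to 40.0% on chromosome 11.

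The sites were mostly solitary, with a few local groups. The nearest other Foxa2-alone site lay at a median of 113233 bp, and 10.5% (9.50% to 11.6%) had one within 10 kb. The nearest 48-hour Foxa2 peak of any class lay at a median of 55476 bp from a Foxa2-alone site and 62675 bp from the other peaks of the list. Joining sites with gaps of at most 2 kb gave 50 pairs and 3 longer runs, which together held 111 sites (3.53%). The longest run had 5 sites and lay on chromosome 17, and runs of 3 lay at chr6:145393903-145397001 and chr9:23189299-23191797. The 1 Mb window with the most Foxa2-alone sites began at position 39000001 of chromosome 3 and held 12 of them among 16 Foxa2 peaks. The median was 2 sites over the 1410 windows with any.

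The gaps from Foxa2-alone sites to peaks of the other Foxa lists are a description, since the same lists defined the sites. Of the Foxa2-alone sites 22.5% (21.1% to 24.0%) had a peak of another Foxa list within 10 kb, without overlap. Over all 6827 peaks of the 48-hour Foxa2 list this share was 28.5%. It was 22.8% (20.7% to 25.1%) for peaks shared at 48 hours and absent from iHep lists, and 40.2% (38.2% to 42.2%) for peaks in an iHep Foxa list. Early Foxa1 peaks held alone gave 23.7% (21.7% to 25.9%). The median gaps were 32576 bp, 32071 bp (shared at 48 hours) and 15146 bp (in an iHep list). The gap hardly followed score, with medians of 29212 bp in the lowest and 34801 bp in the highest of 4 equal score bins of Foxa2-alone sites. The 22.5% changed with the lists used. With all 6 Foxa lists reduced to the highest scoring 3435 peaks it was 13.3%, and in the upper 50% by score of every list 14.3%.

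The lists nearest to Foxa2-alone sites were those of early Foxa1 and late Foxa2. A 48-hour Foxa1 peak was the nearest other Foxa peak at 1234 sites (39.2%) and an iHep Foxa2 peak at 1168 (37.1%). The iHep Foxa3 list, the longest of all with 12661 peaks, was nearest at 330 (10.5%), 48-hour Foxa3 at 307 (9.76%) and iHep Foxa1, the shortest list, at 107 (3.40%). The median gap was 77638 bp to 48-hour Foxa1 and 77521 bp to iHep Foxa2, but 281804 bp to 48-hour Foxa3 and 267017 bp to iHep Foxa3. Without counting overlap, an iHep Foxa3 peak lay within 10 kb of 3.46% (2.88% to 4.16%) of Foxa2-alone sites. The share was nearly the same, 3.47% (2.63% to 4.56%), for peaks shared at 48 hours and absent from iHep Foxa lists. Peaks in an iHep Foxa list gave 13.2% (11.9% to 14.7%).

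**Figure D4:**
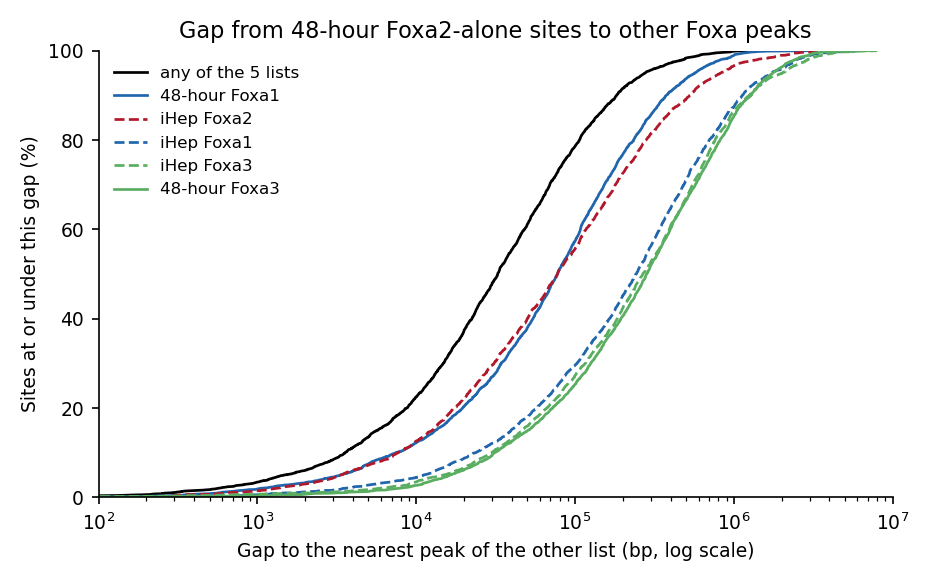
Cumulative share of the 3146 Foxa2-alone sites (vertical axis, %) by gap in bp to the nearest peak of another Foxa list (horizontal axis, log scale). The black line is the nearest of all 5 lists, solid coloured lines are 48-hour lists and dashed lines iHep lists. The 48-hour Foxa1 and iHep Foxa2 lines nearly coincide, with medians of 77638 and 77521 bp, and the remaining lists lie farther to the right.

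Hnf4a peaks, which the rule did not use, were rare at Foxa2-alone sites. Of the 3146 sites 49 (1.56%, 1.18% to 2.05%) overlapped a peak of at least 1 of the 6 Hnf4a lists, against 6.24% of all 29339 merged Foxa regions, some of which span several peaks. The merged regions include iHep Foxa peaks of the lines that gave the iHep Hnf4a lists, and the rule removed such regions. This contrast is thus tied to the rule and is a description. Other regions seen at 48 hours alone were close to the 1.56%. They gave 1.36% (0.899% to 2.05%) for Foxa1 alone and 2.21% (1.55% to 3.13%) for Foxa3 alone. Foxa1 and Foxa2 together in no other Foxa list gave 1.53% (up to 2.32%). The intervals of these 3 classes overlapped that of the Foxa2-alone sites. Of these 49 sites 30 were in a single Hnf4a list and 1 was in all 6. By stage, 13 had Hnf4a at 48 hours and not in iHep cells, 25 in iHep cells and not at 48 hours, and 11 at both. Their median Foxa2 score was 15.0, beside 13.7 for the 3097 sites without Hnf4a.

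At 48 hours Hnf4a of the Foxa2 line overlapped 18 Foxa2-alone sites (0.572%, 0.362% to 0.903%), where the share over all merged Foxa regions was 0.266%. The Hnf4a library of the Foxa3 line overlapped 12 sites (0.381%, 0.218% to 0.666%; 0.16% over all regions) and that of the Foxa1 line 7 (0.223%, 0.108% to 0.459%; 0.31% over all regions). The Foxa2 and Foxa3 lines, which share a title code, had 10 of these sites in common, and the Foxa1 and Foxa2 lines 3. Of the sites in common 5 belong to the run on chromosome 17. Without this run the counts were 13 for the Foxa2 line (0.414%, 0.242% to 0.707%), 7 for the Foxa3 line and 7 for the Foxa1 line, with 5 sites common to the Foxa2 and Foxa3 lines. Other 48-hour Foxa2 peaks overlapped 48-hour Hnf4a of the Foxa2 line in 22 of 3681 cases (0.598%, 0.395% to 0.903%). Of these 22, 8 lay in 3 dense blocks of 48-hour Hnf4a peaks that held no Foxa2-alone site, and outside the blocks the share was 0.381% (0.227% to 0.639%). For Hnf4a of the Foxa2 line these intervals overlap, so a difference between Foxa2-alone sites and the rest of the list was not detectable with lists of this length. For the Foxa3 line the other peaks gave 0.435% (0.268% to 0.705%), which also overlaps. For the Foxa1 line they gave 0.869% (0.616% to 1.22%), above the 0.223% of Foxa2-alone sites with no overlap of intervals. Outside the blocks that share was 0.681%, and the lower bound of its interval, 0.461%, lay just above the upper bound of the Foxa2-alone sites. The rule removed every site with a 48-hour Foxa1 peak, and those peaks came from the same line as this Hnf4a list. The contrast in the Foxa1 line is thus not free of the rule and is a description.

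In iHep cells the Foxa2-alone sites held little Hnf4a, and less than the early Foxa2 peaks that also lay in an iHep Foxa list. Hnf4a of the iHep Foxa2 line overlapped 23 Foxa2-alone sites (0.731%, 0.488% to 1.09%), where the share over all merged Foxa regions was 2.76%. It overlapped 139 of the 2269 peaks in an iHep Foxa list (6.13%, 5.21% to 7.19%). The iHep Foxa1 line gave 18 sites (0.572%, 0.362% to 0.903%; 2.02% over all regions) against 4.23% (3.48% to 5.14%) of the peaks in an iHep Foxa list. The iHep Foxa3 line gave 13 sites (0.413%, 0.242% to 0.706%; 3.8% over all regions) against 3.04% (2.41% to 3.83%). In all 3 lines the intervals were far apart. These classes were divided by Foxa calls in the same iHep lines that gave these Hnf4a lists. The contrast is thus tied to the rule and is a description. Over all scores, peaks shared with another factor at 48 hours and absent from iHep Foxa lists had intervals that overlapped those of the Foxa2-alone sites. For the Foxa2 line 20 of 1412 (1.42%, 0.919% to 2.18%) overlapped iHep Hnf4a, and outside the dense blocks 13 of 1405 (0.925%, 0.542% to 1.58%). For the Foxa1 and Foxa3 lines the counts outside the blocks were 9 and 5. The iHep Foxa2 library carries code R215 and the iHep Hnf4a library of its line R242.

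**Figure D5:**
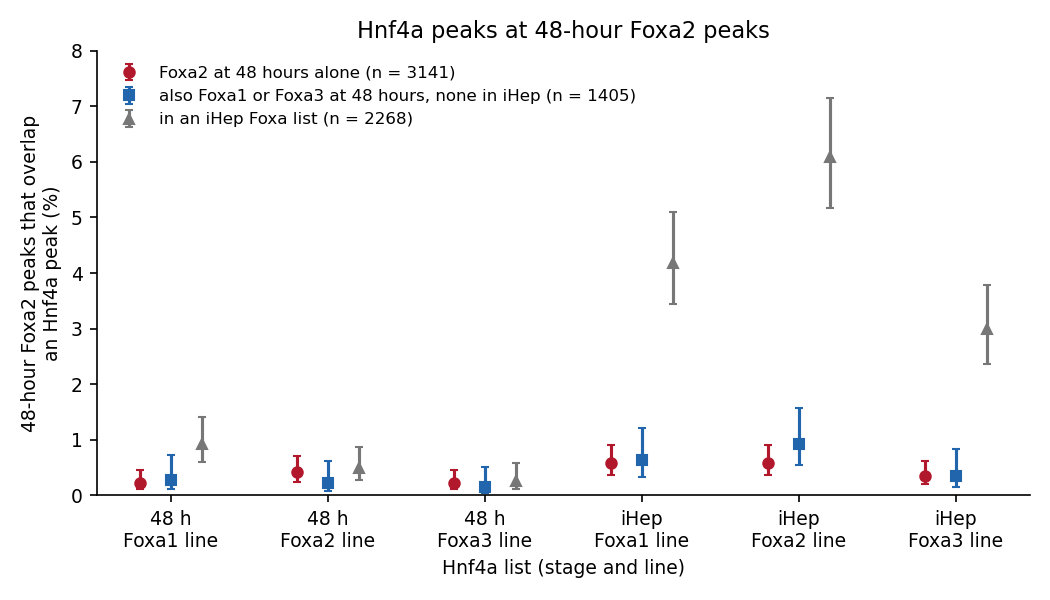
Share of 48-hour Foxa2 peaks that overlap an Hnf4a peak (vertical axis, %) for each of the 6 Hnf4a lists (horizontal axis, stage and line). Red circles are 3141 Foxa2-alone sites outside the chromosome 17 run, blue squares 1405 peaks shared at 48 hours and absent from iHep Foxa lists, grey triangles 2268 peaks in an iHep Foxa list, the last pair outside the dense blocks. Bars are 95% Wilson intervals. At 48 hours the intervals overlap for the Foxa2 and Foxa3 lines, while for the Foxa1 line the grey interval lies above the red one. In iHep cells the grey points stand apart in all 3 lines.

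The difference in iHep Hnf4a between these classes, which iHep Foxa calls define, was found at every level of Foxa2 score. The 48-hour Foxa2 list was divided into 4 equal bins by score, from lowest to highest. In these bins 0.530%, 1.81%, 1.49% and 0.593% of Foxa2-alone sites overlapped a peak of any iHep Hnf4a list. For peaks in an iHep Foxa list the shares in the same order were 6.90%, 8.90%, 7.72% and 8.60%. In the lowest bin the intervals were 0.243% to 1.15% and 4.75% to 9.91%, and in the highest, where 337 Foxa2-alone sites remain, 0.163% to 2.14% and 6.87% to 10.7%. The size of the share moved with the lists: it was 1.22% for the Foxa2 line when the iHep Foxa2 list was left out of the rule, and 1.11% with Foxa lists of equal length.

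The surroundings were compared after leaving out the peaks that overlapped Hnf4a directly. Of the 3123 Foxa2-alone sites without an overlapping iHep Hnf4a peak of the Foxa2 line, 60 (1.92%, with an upper bound of 2.47%) had one within 10 kb. The share was 1.72% (1.16% to 2.55%) for peaks shared at 48 hours and absent from iHep lists, and 5.02% (4.17% to 6.03%) for peaks in an iHep Foxa list. The interval of the Foxa2-alone sites thus lay below that of peaks in an iHep Foxa list here too. The median distances to the nearest such Hnf4a peak were 445489 bp, 527362 bp and 261019 bp in the same order. For 48-hour Hnf4a of the Foxa2 line, 12 of 3128 Foxa2-alone sites (0.384%, 0.220% to 0.669%) and 0.576% (0.337% to 0.983%) of peaks in an iHep Foxa list had a peak within 10 kb without overlap, and these intervals overlap.

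Seen from Hnf4a, Foxa2-alone sites took up a small part of every list. They held 20 of the 453 Hnf4a peaks of the 48-hour Foxa2 line (4.42%, 2.88% to 6.72%), 8 of 418 in the Foxa1 line and 11 of 370 in the Foxa3 line. All 48-hour Foxa2 peaks, of which 46.1% were Foxa2-alone, held 33.6%, 36.4% and 35.1% of these lists. Several Hnf4a peaks can lie at the same Foxa2 peak, as in the dense blocks, which held no Foxa2-alone site. Counted per Foxa2 peak, 0.572% of Foxa2-alone sites and 0.598% of the other peaks overlapped 48-hour Hnf4a of the Foxa2 line. Shares of the Hnf4a lists outside the blocks are not given here. In iHep cells Foxa2-alone sites held 21 of 2485 peaks in the Foxa2 line (0.845%, 0.553% to 1.29%), 18 of 1580 in the Foxa1 line and 15 of 2506 in the Foxa3 line. All 48-hour Foxa2 peaks held 7.16%, 7.85% and 3.75% of these lists. The Hnf4a peaks of the Foxa2 line at Foxa2-alone sites were not the weakest of their lists, with a median score at the 57.2 percentile at 48 hours and at the 68.1 percentile in iHep cells. At 48 hours in the Foxa3 line and in iHep cells of the Foxa1 line they stood lower, at the 27.8 and 29.5 percentile. For the Foxa2 line, the centres of the Foxa2 and Hnf4a peaks lay a median of 93.3 bp apart at 48 hours, at 18 sites. In iHep cells the median was 118 bp, at 23 sites. The chromosome 17 run gave 5 of the sites at each stage. There the 48-hour Hnf4a peaks of the Foxa2 line ranked 55 to 83 of 453. Percentiles and distances without the run were not computed.

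The site with the most Hnf4a was chr13:24287129-24287468, a peak of 340 bp with a Foxa2 score of 17.3 (rank 3076). It overlapped Hnf4a peaks of all 6 lists. Its Hnf4a peak in the iHep Foxa2 line scored 60.1 and ranked 19 of 2485, that of the iHep Foxa1 line scored 26.5 and ranked 61 of 1580, and that of the iHep Foxa3 line scored 10.8 and ranked 1037 of 2506. At 48 hours the ranks were 105 of 453 in the Foxa2 line, 47 of 418 in the Foxa1 line and, for the higher of its 2 peaks there, 268 of 370 in the Foxa3 line. The nearest Foxa peak of another list lay 1698 bp away, in the 48-hour Foxa1 list. Hnf4a was thus called here in every line and stage, while Foxa was called in the 48-hour Foxa2 library alone.

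A pair of further sites overlapped 5 Hnf4a lists each. The site chr19:44095987-44096434, with a Foxa2 score of 30.1, lacked Hnf4a in the 48-hour Foxa3 line, and its Hnf4a peak in the iHep Foxa1 line ranked 48 of 1580. The site chr6:99761146-99761455 lacked it in the 48-hour Foxa1 line and had a Foxa2 score of 8.22, near the low end of the list. Its overlap with the 48-hour Hnf4a peak of the Foxa2 line was 1 bp. Outside the chromosome 17 run, chr7:56652380-56652822 and chr9:35112689-35113282 overlapped 4 lists. The site chr5:147072475-147072920, with a Foxa2 score of 21.6, overlapped 3. There the 48-hour Hnf4a peak of the Foxa3 line ranked 2 of 370 and that of the Foxa2 line 26 of 453, while the iHep Hnf4a peak of the Foxa2 line ranked 2476 of 2485.

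The run of 5 sites on chromosome 17 spanned 5574 bp, chr17:39979959-39985532. Its Foxa2 scores were 13.8, 18.6, 11.2, 13.4 and 61.7 from left to right, the last one ranking 232 in the list. All 5 sites overlapped 48-hour Hnf4a peaks of the Foxa2 and Foxa3 lines and an iHep Hnf4a peak of the Foxa2 line, 2 overlapped iHep Hnf4a of the Foxa3 line, and 0 overlapped Hnf4a of the Foxa1 line at either stage. A single 48-hour Hnf4a peak of 3515 bp in the Foxa2 line and one of 3526 bp in the Foxa3 line reached from the first site into the third, beside a median Hnf4a width of 89 and 93.5 bp in these lists. The nearest Foxa peak of another list was 957883 bp from the last site. The run accounts for 5 of the 18 sites with 48-hour Hnf4a of the Foxa2 line and 5 of the 23 with iHep Hnf4a of that line, which fall to 13 and 18 without it. Whether repeated sequence or copy number plays a part at this run was not tested.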

How the data were processed

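Peak lists were deposited per sample, each with chromosome, start, end, peak name and a score. The deposited score is the authors' value per peak. Its derivation and any use of an input are not stated there. Per the submitters' processing notes, BWA 0.6.2, MACS2 2.1.0, bedtools 2.16.2 and genome build mm9 were involved, with no role stated. Positions are mm9 with the first base counted as 1. Samples were grouped by title, with 1 library per group. The 8 inputs were not analysed here, and the 1 peak of the tagged Foxa3 del2 mutant overlapped no Foxa2-alone site.

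Peaks were merged where they overlapped by at least 1 bp. The site count matched bedtools 2.31.1, and the scripts for overlap were checked on simulated peaks. The sites, lists and comparisons were chosen with earlier results of these data known. Named regions follow a rule: the 10 highest and 5 lowest scores, the 5 widest, the 5 with the shortest gap, the 5 just outside, and up to 10 with the most Hnf4a lists; the text prints a part, and the runs, the window and the blocks were singled out after their values were seen. Dense blocks are chains of at least 5 peaks with gaps up to 2 kb in each 48-hour Hnf4a list, with 10 kb on each side. A genome or annotation of mm9 was not used here, so sequences, motifs and genes are not described. Tables were handled with pandas 2.3.3 and NumPy 2.4.6 under Python 3.11.15, coefficients came from SciPy 1.17.1, and plots from matplotlib 3.10.9. Read depth per sample is unknown, so the precision of a missing peak cannot be given.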

Additional observations from a re-analysis of the deposited data

How the results depend on the processing

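Of 117 values (9 results under 13 alternatives) 85 stayed within the interval of the reported value, or within 1.5 times of it for the number of sites, and 32 moved. Without the chromosome 17 run, added after seeing the data, none moved. The iHep Hnf4a share of peaks in an iHep Foxa list, for the Foxa2 line, was not planned for these alternatives. This share could not move when a 48-hour Foxa list or the run was left out, because iHep Foxa lists alone define those peaks. These fixed values are counted among the 85. With peak centres within 200 bp the sites made up 47.4% of the list and 24.6% had a Foxa peak within 10 kb. The added sites still overlap another Foxa peak and are counted in the 24.6%, unlike in the 22.5% reported above. The upper 50% of every list left 1664 sites (48.8%) with a median score of 21.5 and width of 471 bp, 0.361% with Hnf4a of the 48-hour Foxa2 line, 1.08% with any Hnf4a and 14.3% within 10 kb. The upper 50% of the 48-hour Foxa2 list alone left 1074 sites (31.5%), with 20.9, 457.5 bp, 0.931% for 48-hour Hnf4a and 20.9% within 10 kb. Foxa lists of equal length left 1708 sites (49.7%), with 21.2, 470 bp, 1.11% for iHep Hnf4a of the Foxa2 line and 13.3% within 10 kb. Without the 48-hour Foxa1 list in the rule the values were 66.3%, a score of 15.0, 411 bp and 15.9% within 10 kb of the lists kept. Without the iHep Foxa2 list they were 51.8%, 1.22% for iHep Hnf4a, 2.15% for any Hnf4a and 18.4% within 10 kb of the lists kept. A list left out of the rule was also left out of the search for nearby peaks. The shortened lists kept only the highest scores, so length and score changed together. No cause of the moved values was tested. The share with iHep Hnf4a of the Foxa2 line ran from 0.541% to 1.22% for Foxa2-alone sites and from 4.73% to 8.07% for peaks in an iHep Foxa list over these settings. No paired analysis was possible because each group has 1 library. Read depth is unknown and limits every statement that a site lacks a peak.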
